A study of Rattus norvegicus with 12 samples.

Results

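The nucleus accumbens and the anterior cingulate cortex of rats that had self-administered cocaine were compared on the 6 arrays that carried vehicle-treated animals, 3 per structure. These arrays were chosen by their labels alone, out of 12 in the study, and all 31042 probe sets other than the array maker's controls were kept. The animals were male Wistar rats that had learned to poke their nose into a hole for an intravenous cocaine injection, 0.3 mg/kg in 40 µl, in daily 2 h sessions over 4 days, and were killed with pentobarbital (100 mg/kg) 2 h after the last session. The 4 groups of the study were cingulate cortex with vehicle, cingulate cortex with TsA, accumbens with vehicle and accumbens with TsA. TsA is not spelled out in the labels, the composition and route of the vehicle are not given in them, and every group had taken cocaine, so the values below belong to cocaine-taking rats. Each array carried RNA pooled from 2 rats, and the labels do not tell whether the same rats gave both a cingulate and an accumbens pool. The replicates are separate pools by their labels, and p-values measure the spread between these pools.

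The nucleus accumbens, the ventral part of the striatum, consists mostly of GABA-releasing spiny projection neurons, which fall into a direct pathway with dopamine D1 receptors, dynorphin and substance P, and an indirect pathway with dopamine D2 receptors, adenosine receptors and enkephalin. In direct-pathway neurons dopamine acts through an olfactory-type G protein, cyclic AMP and the phosphatase inhibitor DARPP-32. The anterior cingulate cortex is a layered cortex whose main cells are glutamatergic pyramidal neurons that carry the vesicular glutamate transporter VGLUT1, beside several classes of GABA interneurons, and it lies directly under the meninges.

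Of the genes at the high end of the comparison, 3 promoters are shown because they hold a motif of the cyclic AMP or the retinoic acid pathway. Regulation of these genes by either pathway was not tested. Promoters span 250 bases before to 50 bases after the annotated start (RefSeq, build GRCr8), read 5′ to 3′ on the gene's own strand. Capitals mark the cyclic AMP response element TGACGTCA in Cartpt and Gpr6. In Rarb they mark GTTCA and GTTCA with 6 bases of any kind between. This is the pattern searched for, a shortened form of the direct repeat that retinoic acid receptors bind.
Cartpt (CART peptide precursor, chr2:32991186-32991485, minus strand): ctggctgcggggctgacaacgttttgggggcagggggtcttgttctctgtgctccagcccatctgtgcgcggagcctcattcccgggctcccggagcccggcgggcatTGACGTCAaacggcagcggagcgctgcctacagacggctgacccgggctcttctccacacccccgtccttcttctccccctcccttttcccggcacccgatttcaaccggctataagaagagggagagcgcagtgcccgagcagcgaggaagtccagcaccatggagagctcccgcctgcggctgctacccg
Gpr6 (a receptor that raises cyclic AMP, chr20:46075202-46075501, minus strand): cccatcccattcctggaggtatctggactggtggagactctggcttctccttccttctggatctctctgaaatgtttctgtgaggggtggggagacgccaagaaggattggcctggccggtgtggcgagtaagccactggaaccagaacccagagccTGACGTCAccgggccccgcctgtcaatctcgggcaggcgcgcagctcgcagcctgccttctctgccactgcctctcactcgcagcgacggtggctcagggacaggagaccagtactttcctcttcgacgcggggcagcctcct
Rarb (retinoic acid receptor beta, chr15:11336142-11336441, plus strand): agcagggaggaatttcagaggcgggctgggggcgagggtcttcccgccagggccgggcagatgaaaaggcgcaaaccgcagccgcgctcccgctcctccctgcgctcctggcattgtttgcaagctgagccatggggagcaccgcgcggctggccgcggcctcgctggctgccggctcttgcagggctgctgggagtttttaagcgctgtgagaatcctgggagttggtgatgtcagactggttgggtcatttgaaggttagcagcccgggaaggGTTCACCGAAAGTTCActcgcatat
The first base of the response element lay 142 bases before the start of Cartpt and 93 bases before that of Gpr6, and the repeat of Rarb began 25 bases after the start. On either strand the response element was present in 612 of 33469 promoters (1.83%), in 2 of the 13 genes with a promoter entry among the 15 genes most above the cingulate, and in 0 of 12 among the 15 most below. The repeat was present in 140 promoters (0.418%), in 1 of those 13, in 0 of those 12, and in 2 of 18 genes of the retinoic acid pathway, Rarb and Cyp26a1. Both percentages are per promoter entry, whereas a gene was counted where any of its entries held the motif, so the shares are not directly comparable. Neither motif overlaps the other, and a match is a description of these letters and not of binding.

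Signal is the deposited MAS5 value, in arbitrary units scaled to a common trimmed mean, and differences are accumbens minus cingulate on the log2(signal + 16) scale, which understates the fold of dim genes. Errors after ± are standard errors of the limma fit with 3 arrays per structure, and a gene is called higher or lower in the accumbens where its Benjamini-Hochberg adjusted p over all probe sets is under 0.05. A gene with several probe sets is represented by its brightest. Of the 31042 probe sets 4568 were called (14.7%), 2534 higher in the accumbens (8.16%) and 2034 lower (6.55%). Among 14217 named genes 2218 were called (15.6%), with 1022 higher (7.19%) and 1196 lower (8.41%), and the median difference of all genes was 0.0025. These shares are the background for the counts of each gene list below. Differences of at least 4-fold were called for 58 genes above and 59 below the cingulate, and those of at least 8-fold for 16 and 6. Arrays of the same structure correlated at 0.981 to 0.990 in the cingulate and 0.972 to 0.986 in the accumbens, against 0.930 to 0.964 between structures. By the run records, the 3 cingulate arrays were washed in batch 1, accumbens arrays 1 and 2 in batch 2 and accumbens array 3 in batch 3, so no batch held vehicle arrays of both structures. Batch 2 also held cingulate TsA arrays 2 and 3, so a fit to all 12 arrays can carry wash batch as a fixed block, with the structures joined through that batch. It called 2190 probe sets, of which 1926 were among the 4568, every one in the same direction. Leaving out 1 array at a time changed the count most without cingulate array 3 (2382 called), cingulate array 2 (2542) and accumbens array 2 (2543). All 4568 probe sets kept their sign in each of these 6 fits and 2045 stayed past the threshold in all 6 (44.8%). These fits reuse the arrays that set the calls, so a kept sign is not independent evidence.

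**Figure D1:**
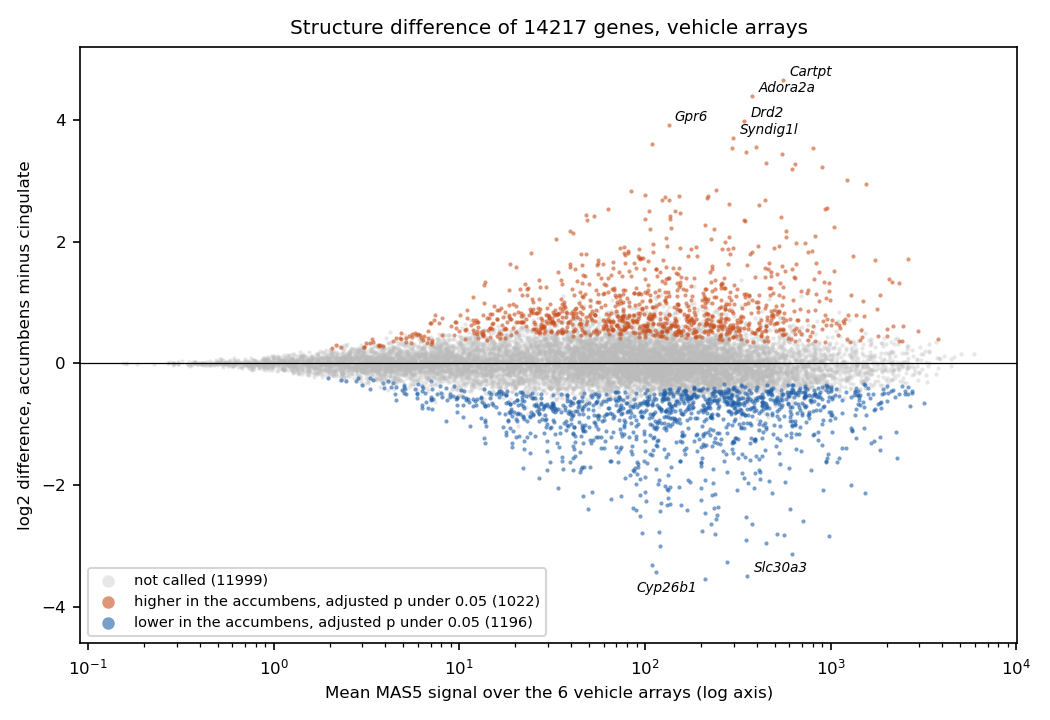
Difference between accumbens and cingulate, as log2(signal + 16), against mean signal over the 6 vehicle arrays on a log axis, for 14217 genes with 1 probe set each. The 1022 genes in orange were higher and the 1196 in blue lower in the accumbens, and Cartpt and Cyp26b1 lie at the ends.

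Genes of the spiny projection neurons stood at the top of the comparison. Cartpt gave 24.8, 27.5 and 28.4 on the 3 cingulate arrays and 905, 1106 and 1218 on the 3 accumbens arrays, a difference of 4.66 ± 0.13 (adjusted p = 1.04e-05). Of the genes shared by both classes of spiny neuron 27 of 29 measured were called higher and 0 lower, with a median difference of 1.89, and 26 of the 27 stayed past the threshold without any 1 array. The other 2 were Itpr1, the endoplasmic calcium release channel of these cells (0.37), and Ppp1r1a, a phosphatase inhibitor (0.32). In bulk tissue such as this, fewer cells of a type and less RNA per cell cannot be told apart.

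Dopamine receptor genes of both pathways were far apart between the structures. Drd1, the receptor of the direct pathway, read 109, 97.9 and 112 in the cingulate and 1086, 1358 and 1074 in the accumbens, a difference of 3.27 ± 0.13 (adjusted p = 1.71e-05). Drd2, the receptor of the indirect pathway, read 21.7, 25.5 and 33.0 and 626, 744 and 609.6, a difference of 3.99 ± 0.14 (adjusted p = 1.33e-05). For both receptors the lowest accumbens array lay far above the highest cingulate array. The remaining dopamine receptor genes were dim in both structures and were not called, with signals of 0.499, 4.61 and 7.53 against 6.32, 4.86 and 7.14 for Drd3, 12.1, 13.9 and 15.3 against 11.5, 9.28 and 6.89 for Drd4 and 3.55, 1.60 and 2.97 against 4.54, 3.67 and 1.20 for Drd5.

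Direct-pathway genes were called higher for 8 of 12 and lower for 2, with a median of 1.53. The dynorphin precursor gene Pdyn had signals of 88.3, 91.3 and 174 in the cingulate and 1251, 1666 and 1576 in the accumbens (3.55 ± 0.24), with cingulate array 3 well above the other cingulate arrays but far below each accumbens array. Tac1, the precursor of substance P, had 83.6, 70.8 and 54.0 against 825, 1019.8 and 646 (3.30 ± 0.19). Isl1, a homeodomain factor of direct-pathway and cholinergic neurons, was at 1.64, 1.58 and 2.04 on the cingulate arrays and 43.5, 58.3 and 38.8 on those of the accumbens (1.81 ± 0.14), while a second probe set showed 0.04 and was not called. Slc35d3, a nucleotide sugar transporter family member known from D1 neurons of mice (2.51 ± 0.19), Pde1b, a calmodulin-dependent phosphodiesterase (2.24 ± 0.14), and the factors Zfp521 (1.24) and Ebf1 (0.96) were higher too. Eya1 was lower (-1.04 ± 0.16), as was Sfxn1 (-0.50 ± 0.11), although the call of Eya1 was lost with the wash batch block (adjusted p = 0.0932) and that of Sfxn1 without cingulate array 2 (0.0783), cingulate array 3 (0.0917), accumbens array 1 (0.0512) or accumbens array 2 (0.0803). Chrm4, the muscarinic receptor that D1 neurons carry, was not called (0.32).

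Indirect-pathway genes were called higher for 5 of 10 and lower for 0, with a median of 0.45. Adora2a, the adenosine receptor of this pathway, gave 16.3, 23.6 and 19.5 on the cingulate arrays against 662, 843 and 708 on the accumbens arrays (4.39 ± 0.14, adjusted p = 1.04e-05). Gpr6 was near the floor of the array in the cingulate, at 2.31, 1.78 and 2.04, and at 229, 365 and 204 in the accumbens (3.92 ± 0.21). It was the single gene below 20 on every cingulate array and above 200 on every accumbens array. Penk, the enkephalin precursor, was bright in both, at 329, 371 and 326 and 2673, 3234 and 2363 (2.94 ± 0.13). Among the members that were not called were the delta opioid receptor gene Oprd1 (3.49, 0.637 and 0.291 against 9.38, 2.58 and 1.86) and the kainate receptor gene Grik3 (0.966, 3.27 and 0.435 against 2.71, 5.35 and 3.46). Both of these were at or near the floor in both structures. What sets the modest median was not tested. Without the lowest 40% of probe sets by mean signal over both structures the median was 3.43. A gene bright in 1 structure alone, such as Gpr6, passes that filter through that structure, so the filter itself favours large differences.

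**Figure D2:**
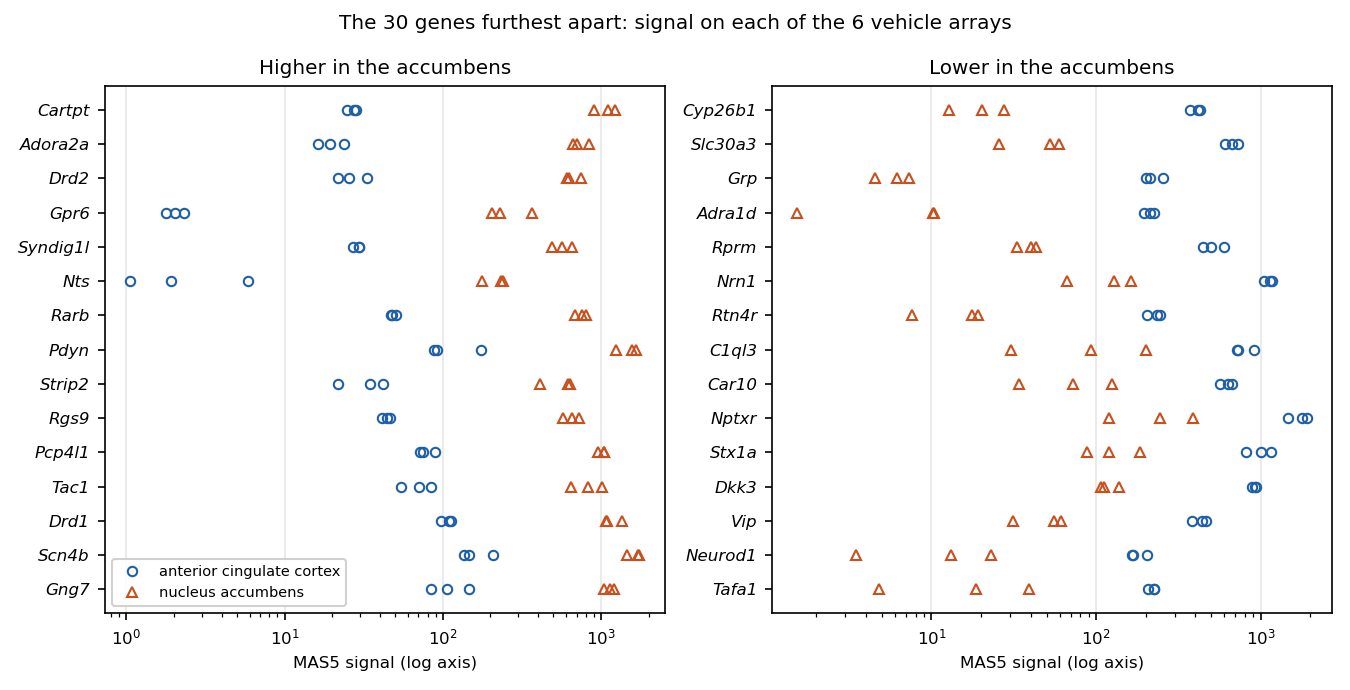
Signal on each of the 6 vehicle arrays, on a log axis, for the 15 genes highest and the 15 lowest in the accumbens among called genes, with circles for cingulate and triangles for accumbens arrays. In each of the 30 genes the 2 groups of arrays lie apart, from Cartpt (28.4 at most against 905 at least) to Tafa1 (206 at least against 39.1 at most). Over all 14217 genes the groups lie apart for 34.1%.

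The genes that couple dopamine receptors to cyclic AMP differed in both directions. Gnal, the alpha subunit of the olfactory-type G protein, was higher by 2.35 ± 0.16, and Gng7, the gamma subunit that assembles with it, by 3.19 ± 0.18 (84.0, 106 and 145 in the cingulate, 1039.7, 1209 and 1137 in the accumbens). Adcy5, the main adenylyl cyclase of the striatum, was at 82.8, 113 and 108 and 525, 721 and 509 (2.35 ± 0.17), with -0.05 at another probe set. Phosphodiesterases that break down cyclic nucleotides in spiny neurons were higher as well, with Pde10a at 2.56 ± 0.13, Pde8b at 1.80 ± 0.21, Pde8a at 1.38 ± 0.17 (0.50 at another probe set) and Pde7b at 1.29 ± 0.16. Other subunits and cyclases went the other way. Gng2 was 583, 605 and 656 in the cingulate and 174, 149 and 174 in the accumbens (-1.80 ± 0.11), Adcy2 was lower at -1.15 ± 0.17, Gng3 at -0.80 ± 0.14 and Prkar1b, a regulatory subunit of protein kinase A, at -0.76 ± 0.12. Of 39 genes of cyclases, phosphodiesterases and G protein subunits 12 were called higher and 8 lower, and the catalytic subunits of protein kinase A, Prkaca (-0.17) and Prkacb (0.06), were not called.

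Downstream of cyclic AMP, Ppp1r1b, which encodes DARPP-32, read 229.6, 300.0 and 243 in the cingulate and 2069.6, 2594 and 1939.7 in the accumbens (3.02 ± 0.15, adjusted p = 5.35e-05). Ptpn5, the striatal-enriched tyrosine phosphatase STEP, was higher by 1.84 ± 0.10. So were Pcp4, a small calmodulin-binding protein (1.34 ± 0.10), and its relative Pcp4l1 (75.4, 89.2 and 72.0 against 953, 1047 and 1042, 3.44 ± 0.11), whereas Nrgn, the calmodulin-binding neurogranin, was lower (2439, 2695 and 2581 against 980.1, 1246 and 1107, -1.20 ± 0.11). Of 18 phosphatase inhibitors and related regulators 10 were called higher and 2 lower, with a median of 0.62. Arpp21, a cyclic AMP-regulated phosphoprotein, differed by 1.38 ± 0.12 at its brightest probe set and by -0.81 (adjusted p = 0.00242) at another. A further probe set of the gene showed 1.81, so its called values stood in opposite directions.

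Regulators of G protein signalling (RGS), which shorten the life of active G proteins, were called higher for 5 of 15 and lower for 4. Rgs9, whose long form is found in striatal neurons, was 41.4, 46.5 and 44.5 in the cingulate and 578, 728 and 651 in the accumbens (3.47 ± 0.12), with 0.13 at another probe set. Rgs4 was lower in the accumbens, at 529, 378 and 527 against 1408, 1492 and 1378 (-1.56 ± 0.14), as was Rgs12 (-1.03 ± 0.18, with -0.12 at another probe set). The groups of arrays did not overlap for any of these 3 genes, as was the case for 4847 of all 14217 genes (34.1%).

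Of 27 peptide precursor genes 10 were called higher and 7 lower. Beside Cartpt, Pdyn, Tac1 and Penk, the accumbens was higher in Nts, the neurotensin precursor (5.91, 1.92 and 1.05 against 176, 240.1 and 233, 3.61 ± 0.17), and Trh, the thyrotropin-releasing hormone precursor (1.70, 1.06 and 3.82 against 35.9, 36.8 and 42.1, 1.58 ± 0.11). Nts is also a gene of the neighbouring septal and pallidal regions, whose list is described below. The cingulate was higher in Grp, gastrin-releasing peptide, at 212, 253 and 202 against 7.27, 6.17 and 4.53 in the accumbens (-3.43 ± 0.14), and in Vip, vasoactive intestinal peptide of cortical interneurons, at 466, 382 and 439 against 55.6, 31.1 and 61.5 (-2.79 ± 0.20). Adcyap1, the precursor of PACAP, was lower in the accumbens at -2.40 ± 0.17 and the corticotropin-releasing hormone gene Crh at -1.41 ± 0.20. Cck, cholecystokinin of cortical pyramidal cells and interneurons, gave 2518, 2495 and 2385 in the cingulate and 589.8, 296 and 953 in the accumbens (-2.13 ± 0.35). Its 3 accumbens arrays spread widely, with array 2 lowest, yet all lay below the cingulate arrays. Somatostatin (-0.03) and neuropeptide Y (0.44) precursors were not called.

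Of 30 neuropeptide receptor genes 11 were called lower and 5 higher. Oprk1, the kappa opioid receptor that dynorphin activates, was at 3.71, 1.92 and 4.63 in the cingulate and 118, 105 and 54.8 in the accumbens (2.43 ± 0.24, and 1.09 at another probe set). The calcitonin and amylin receptor gene Calcr was at 1.98, 9.47 and 2.92 and 82.9, 98.2 and 49.4 (2.14 ± 0.23). Lower were the somatostatin receptor genes Sstr1 (390.0, 453 and 361 against 59.8, 33.7 and 62.8, -2.64 ± 0.19, but 0.00 at another probe set) and Sstr2 (-1.29 ± 0.17), the neuropeptide Y receptor gene Npy1r (-1.44 ± 0.14), the cholecystokinin receptor gene Cckbr (-1.28 ± 0.12), Vipr1 (-1.37 ± 0.16, and -0.49, not called, at another probe set) and the nociceptin receptor gene Oprl1 (-0.98 ± 0.16). The mu opioid receptor gene Oprm1 was dim in both, at 3.22, 11.02 and 1.99 in the cingulate and 11.2, 13.1 and 6.04 in the accumbens, and was not called.

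Among 26 monoamine receptor genes 7 were called higher and 3 lower. Htr2c, the serotonin 2C receptor, was 299, 239 and 252 in the cingulate and 1768, 1683 and 1378 in the accumbens (2.54 ± 0.13). Htr4 (1.50 ± 0.12, and 0.74 at another probe set), Adra2c (1.17 ± 0.14) and Htr1d (1.38 ± 0.24) were higher, the last losing its call with the wash batch block (adjusted p = 0.0551). Among the alpha-1 adrenergic receptor genes Adra1a was not called (-0.13) and the other two were lower in the accumbens. Adra1d was 196, 226 and 213 in the cingulate and 10.4, 1.53 and 10.2 in the accumbens (-3.31 ± 0.18), and Adra1b was 167, 184 and 139 and 25.1, 21.0 and 26.3 (-2.16 ± 0.14). The serotonin 1A receptor gene Htr1a was lower in the accumbens, at 6.01, 7.58 and 5.91 against 34.1, 33.9 and 29.5 (-1.11 ± 0.11). Htr2a gave no call, with cingulate arrays (86.3, 30.1 and 43.5) and accumbens arrays (122, 78.9 and 37.3) that overlapped.

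Other receptors with a clear difference were Lpar1, a lysophosphatidic acid receptor that oligodendrocytes also carry (215, 236 and 178 against 786, 1040.3 and 998, 2.09 ± 0.15), the orphan receptors Gpr149 (1.91 ± 0.14) and Gpr37 (1.56 ± 0.14), and, lower in the accumbens, the muscarinic receptor gene Chrm3 (149, 143 and 148 against 37.9, 29.5 and 40.8, -1.65 ± 0.13). The cannabinoid receptor gene Cnr1 was lower at -1.17 ± 0.25 (adjusted p = 0.0198), a call lost without cingulate array 1 (adjusted p = 0.0607) or cingulate array 3 (0.0745) and with the wash batch block (0.129). In its list of adenosine, muscarinic, cannabinoid and orphan receptors 6 of 19 were called higher and 3 lower.

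Transcription factors of striatal neurons were called higher for 14 of 20 and lower for 1, Nr4a1, with a median of 1.10. The call of Nr4a1 (-0.78) was lost without cingulate array 2 (adjusted p = 0.0809), cingulate array 3 (0.0996), accumbens array 1 (0.0728) or accumbens array 2 (0.111). Rarb, whose promoter repeat is shown above, was 50.4, 47.0 and 47.8 in the cingulate and 680.0, 799 and 763 in the accumbens (3.56 ± 0.11, adjusted p = 1.04e-05). Foxp2, a forkhead factor of striatal and deep cortical neurons, was 102, 43.6 and 49.2 and 392, 374 and 305 (2.27 ± 0.25). Bcl11b, also called Ctip2, which spiny neurons share with subcerebral projection neurons of the cortex, was 435, 444 and 442 and 1429, 1233 and 1177 (1.50 ± 0.11). Zfp503 (2.47 ± 0.13, with -0.12 and 0.20 at other probe sets), Dlx5, a factor of GABA neurons (1.79 ± 0.13), Zfhx3 (1.43), Meis1 (1.30), Meis2 (1.07) and Foxp1 (1.13) were higher too.

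Factors of cortical projection neurons were called lower for 14 of 27 and higher for 4, with a median of -0.70. Neurod6, a basic helix-loop-helix factor of pyramidal neurons, was 514, 375 and 359 in the cingulate and 81.7, 22.8 and 85.3 in the accumbens (-2.55 ± 0.36). Neurod1 was 166, 168 and 203 and 13.1, 3.46 and 23.0 (-2.79 ± 0.24). Factors that mark cortical layers took both directions. Lower were Fezf2 of the deep layers at 174, 203 and 159 against 23.7, 22.3 and 27.7 (-2.26 ± 0.13), Cux2 of the upper layers at 187, 226 and 253 against 33.1, 40.9 and 50.1 (-2.06 ± 0.16), Tbr1 of layer 6 at -1.78, and, of other factors in the list, Bhlhe22, Satb1 and Emx1 at -2.48, -1.89 and -1.53. The 4 called higher, Pou3f1 (0.86), Tle4 (0.57), Cux1 (0.55) and Lmo3 (0.49), differed by less than 1. Of these Pou3f1 alone kept its call without any 1 array, but lost it with the wash batch block (adjusted p = 0.105), so that 0 of the 4 held in every alternative. Rorb, a factor of layer 4, was not called (-0.06).

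Retinoic acid genes were found on both sides. Rarb and its partner receptor Rxrg (1.4 ± 0.13, with -0.04 at another probe set) were higher in the accumbens, whereas Cyp26b1, the enzyme that clears retinoic acid, was 413, 425 and 369.6 in the cingulate and 12.7, 20.2 and 27.7 in the accumbens (-3.55 ± 0.17, adjusted p = 5.11e-05, and -1.62 at another probe set). Of 19 genes of the pathway 6 were called higher and 3 lower. Aldh1a2, an enzyme that makes retinoic acid and is abundant in meninges, was lower in the accumbens (108, 115 and 117 against 28.7, 25.2 and 46.8, -1.41 ± 0.17), and Crabp1, a cytosolic retinoic acid binding protein, was higher (1.43 ± 0.17). Both lost their calls with the wash batch block (adjusted p = 0.0694 and 0.0947).

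Markers of glutamatergic cortex were called in both directions, more often lower in the accumbens. Slc17a7, the vesicular glutamate transporter VGLUT1, gave 983, 1259 and 1379.6 on the cingulate arrays and 224, 75.1 and 353 on the accumbens arrays (-2.60 ± 0.45, adjusted p = 0.00774), with accumbens array 2 far below array 3. Slc30a3, which loads zinc into glutamatergic vesicles, read 603, 726 and 664 and 59.6, 25.8 and 52.7 (-3.50 ± 0.22). Nrn1, which encodes the neurite-promoting protein neuritin, read 1043, 1172 and 1129 and 128, 66.9 and 162 (-3.14 ± 0.25), and Rprm, a cell-cycle arrest gene, 499.6, 594 and 445 and 42.9, 33.0 and 40.4 (-3.27 ± 0.14). Rasgrf2, a Ras exchange factor of upper-layer neurons, was lower at -1.60 ± 0.14 (-0.36 at another probe set). Of 27 genes of this list 9 were called lower and 4 higher, among the 4 Foxp2 (2.27, adjusted p = 0.0012), which stands in the striatal list as well, and the median was -0.29. Lamp5 (-0.29) and Camk2a (-0.61, but 0.87, 0.82 and -0.56, each called, at other probe sets) did not pass.

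Of 32 synaptic organisers and scaffolds 10 were called lower, each of them also without any 1 array, and 3 higher. C1ql3, a secreted C1q-like protein, was 906, 716 and 731 in the cingulate and 93.5, 30.3 and 202 in the accumbens (-2.94 ± 0.48, and -0.21, not called, at another probe set). The neuronal pentraxin receptor gene Nptxr was 1465, 1789.8 and 1895 and 243, 119 and 389 (-2.83 ± 0.35, and -0.29, not called, at another probe set), and its ligand gene Nptx1 was 1292, 1534 and 1556 and 300.2, 251 and 492 (-2.07 ± 0.22). Cbln2, a cerebellin, was lower at -2.42 ± 0.21 (-1.06 at another probe set) and Nxph3, a ligand of neurexins, at -1.74 ± 0.17. On the accumbens side were Syndig1l, an AMPA receptor-associated protein family member first known from caudate and putamen (27.1, 29.5 and 29.4 against 568, 653 and 487, 3.70 ± 0.13), and its relative Syndig1 (0.91 ± 0.12).

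The machinery of vesicle release was called lower for 14 of 37 and higher for 6, with a median of -0.40. Stx1a, the plasma membrane SNARE syntaxin 1A, was 817, 1158 and 1001 in the cingulate and 119.5, 88.2 and 184 in the accumbens (-2.82 ± 0.24). Syt17 (-2.53 ± 0.35), the vesicle protein gene Sv2b (778, 724 and 744 against 195, 181 and 177, -1.93 ± 0.10, with 0.31 and -0.15, not called, at other probe sets) and synapsin gene Syn1 (-1.10 ± 0.14) were lower. The release primer Unc13c (31.9, 8.80 and 18.1 against 261, 205 and 104, 2.50 ± 0.34) and Sv2c, a vesicle protein of the basal ganglia (2.61, 1.13 and 1.23 against 25.6, 28.1 and 12.6, 1.08 ± 0.17), were higher. The SNARE gene Snap25 (-0.31) and complexin gene Cplx2 (-0.01) were not called. Without any 1 array 7 of the 14 and 2 of the 6 stayed past the threshold.

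Growth factor genes were called lower for 5 of 25 and higher for 0. Bdnf, brain-derived neurotrophic factor, which cortical neurons make and carry to the striatum, gave 143, 110.4 and 103 in the cingulate and 17.3, 6.30 and 15 in the accumbens (-2.23 ± 0.19, and -0.56, not called, at another probe set). Ntf3, neurotrophin 3, was 26.5, 28.7 and 24.0 and 2.39, 0.701 and 0.325 (-1.31 ± 0.10), and Gfra2, the receptor of neurturin, 203, 232 and 207 and 46.8, 38.9 and 38.0 (-2.01 ± 0.12). The neurotrophin receptor genes Ntrk2 (-0.20) and Ntrk3 (-0.31) were not called at their brightest probe sets, but another probe set of Ntrk2 was called lower (-0.56, adjusted p = 0.0139).

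In the list of kinases that read calcium and diacylglycerol and related genes 2 of 24 were called higher and 7 lower. The lowest member was Plcb4, a phospholipase C and not a kinase (-1.25, with -0.57, not called, at another probe set). Its call was lost with the wash batch block (adjusted p = 0.17). Prkch, protein kinase C eta, was 22.9, 22.4 and 18.9 in the cingulate and 229, 281 and 194 in the accumbens (2.73 ± 0.15). Dgkb, a diacylglycerol kinase of the striatum, was higher by 2.41 ± 0.50 (adjusted p = 0.0159), with arrays that varied widely inside each structure (243, 77.6 and 140.1 against 1355, 1022 and 387) and a call lost without cingulate array 2 (adjusted p = 0.0563), cingulate array 3 (0.0635) or accumbens array 2 (0.0718). Dgkz (-1.18 ± 0.18) and Camk2d (-0.85 ± 0.11, with -0.19 at another probe set) were lower. Camk2g was lower at -1.24 ± 0.15 at its brightest probe set and higher by 0.51 (adjusted p = 0.0184) at another.

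Potassium channel genes were called higher for 8 of 45 and lower for 13, with a median of -0.25. Kcna5 (31.5, 31.8 and 45.2 against 203, 191 and 164, 1.96 ± 0.15), the beta subunit gene Kcnab1 (1.65 ± 0.16), Kcnk2, a background channel (1.15 ± 0.10), Kcnd2, a pore subunit of the A-type current (0.82 ± 0.14), and its partner Kcnip2 (1.43 ± 0.13, with -0.02 at another probe set) were higher in the accumbens. The listed genes of G protein-gated channels, which many inhibitory receptors open, were lower, with Kcnj6 at 282, 277 and 319 against 49.1, 19.3 and 69.5 (-2.41 ± 0.29, but -0.26 and -0.10, not called, at other probe sets), Kcnj9 at 64.2, 68.2 and 74.5 against 14.7, 10.9 and 12.9 (-1.56 ± 0.13) and Kcnj3 at -1.20 ± 0.17 (0.16 at another probe set). Lower too were Kcns3, a subunit silent on its own (186, 201 and 126 against 29.0, 12.2 and 44.9, -2.11 ± 0.29), Kcnmb4 (-1.42 ± 0.15) and Kcnv1 (-1.25 ± 0.11). Of the 13, Kcnc2, a fast delayed rectifier of interneurons (-1.80 ± 0.24), showed -0.76 (adjusted p = 0.00733) and -0.00 at other probe sets.

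Sodium and calcium channel genes were called higher for 5 of 30 and lower for 2. Scn4b, the sodium channel beta-4 subunit, was 146, 208 and 136 in the cingulate and 1463, 1742 and 1718 in the accumbens (3.22 ± 0.16). Ryr3, an intracellular calcium release channel, was 26.7, 21.9 and 30.7 and 256, 173 and 129 (2.21 ± 0.23), and the calcium channel subunit gene Cacna2d3 differed by 1.25 ± 0.13. The pore-forming neuronal sodium channel genes Scn1a (-0.11), Scn2a (-0.25) and Scn8a (-0.11) were not called.

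Among GABA receptor subunits 3 of 17 were called lower and 0 higher: Gabbr2, a subunit of the metabotropic receptor (1166, 1199 and 1274 against 338, 271 and 457, -1.76 ± 0.18), Gabra5 (-1.02 ± 0.13) and Gabbr1 (-0.63 ± 0.12, with 0.06, 0.16 and 0.14, not called, at other probe sets). The call of Gabbr1 was lost with the wash batch block (adjusted p = 0.0524) and without cingulate array 2 (0.0578), cingulate array 3 (0.0714) or accumbens array 2 (0.0572). Gabrb2 shows how far arrays of 1 structure could differ, with 597, 188 and 256 in the cingulate and 698, 350.0 and 125 in the accumbens (0.04 ± 0.60). Of 27 glutamate receptor subunits 4 were called higher and 3 lower. The metabotropic receptor genes took both directions, Grm4 (1.16 ± 0.15) and Grm5 (1.10 ± 0.17, with 0.48, not called, at another probe set) higher and Grm2 lower (140.3, 144 and 109.7 against 31.8, 10.4 and 33.1, -1.89 ± 0.25), and the AMPA receptor partners Cacng2 (-1.14 ± 0.12, with -0.27 at another probe set) and Cacng3 (-0.86 ± 0.14) were lower. The call of Grm5 was lost with the wash batch block (adjusted p = 0.0777). The AMPA and NMDA receptor pore subunits measured, from Gria2 (0.63) to Grin2a (-0.67), were not called.

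**Figure D3:**
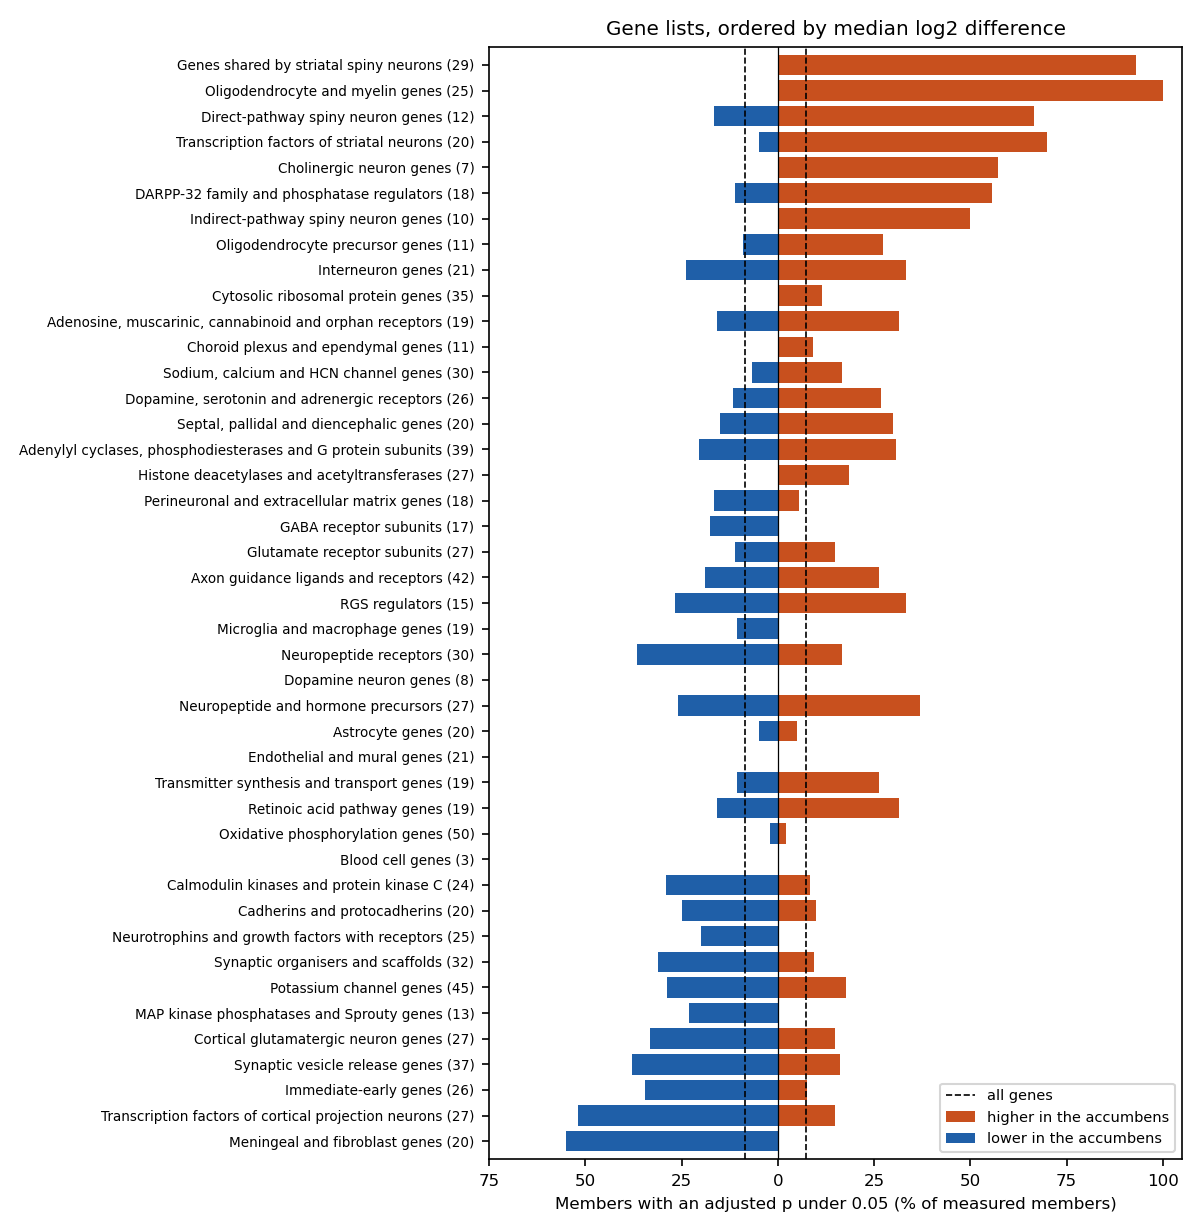
Share of each list's measured genes (number in brackets) called higher (orange, to the right) or lower (blue, to the left) in the accumbens, with lists ordered by median log2 difference and dashed lines at the shares over all genes, 7.19% higher and 8.41% lower. The list of shared spiny neuron genes (27 of 29 higher) and the oligodendrocyte list (25 of 25 higher) lie at the top, and the meningeal list (11 of 20 lower) at the foot.

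Of 19 transmitter synthesis and transport genes 5 were called higher and 2 lower, with a median of -0.06. The 5 were Slc32a1, Gad1 and Gad2 of GABA neurons and Slc18a3 and Slc5a7 of cholinergic neurons, and the 2 were Slc17a7 and Slc30a3. Slc32a1, the vesicular GABA transporter, was 128, 166 and 165 in the cingulate and 456, 626 and 652 in the accumbens (1.80 ± 0.17), and the glutamate decarboxylase genes Gad1 and Gad2 differed by 0.89 ± 0.10 and 1.87 ± 0.34. The interneuron list was called in both directions, with 7 of its 21 genes higher and 5 lower. Among the 7 are Slc32a1, Gad1 and Gad2, which are not particular to a subtype of interneuron. Nkx2-1 (0.955), Tac3 (1.39) and Prox1 (0.61) were higher too. With the wash batch block Tac3 (adjusted p = 0.321) and Prox1 (0.076) lost their calls. That of Tac3 was also lost without cingulate array 1 (0.0751), 2 (0.0705) or 3 (0.118), without accumbens array 2 (0.112) or 3 (0.0714) and within wash batch 2 (0.117). That of Prox1 was also lost without cingulate array 2 (0.059) or accumbens array 2 (0.0688). Parvalbumin (Pvalb) was 372, 464 and 371 in the cingulate and 56.7, 47.4 and 97.0 in the accumbens (-2.37 ± 0.22), and reelin (Reln) was lower at -1.22 ± 0.12. Choline acetyltransferase (Chat), the enzyme of the large cholinergic interneurons, was 5.49, 9.75 and 7.10 and 39.1, 45.2 and 34.1 (1.24 ± 0.13), and the choline transporter gene Slc5a7 was 17.5, 5.44 and 8.94 and 112, 90.2 and 38.8 (1.79 ± 0.32). Of 7 cholinergic genes 4 were called higher and 0 lower, the vesicular transporter Slc18a3 (0.67 ± 0.13) losing its call with the wash batch block (adjusted p = 0.0606). Of 8 dopamine neuron genes limma called 0 (1 at an unadjusted p under 0.05). The dopamine transporter gene Slc6a3 was at 6.51, 7.70 and 13.2 in the cingulate and 7.80, 7.20 and 9.17 in the accumbens and tyrosine hydroxylase (Th) at 18.6, 29.6 and 14.8 and 13.8, 14.2 and 8.55, and both transcripts reside in midbrain cell bodies.

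Axon guidance genes were called higher for 11 of 42 and lower for 8. The netrin gene Ntn1 was 30.4, 34.9 and 34.8 in the cingulate and 139.8, 155 and 158 in the accumbens (1.76 ± 0.12, with 0.21 and 0.42 at other probe sets), and one of its receptors, Unc5b, was higher by 1.25 ± 0.16. Sema4d, a semaphorin that oligodendrocytes make, was higher by 1.10 ± 0.16. Ephb6, an Eph receptor without kinase activity, was 367, 407 and 331 and 51.2, 52.2 and 59.0 (-2.45 ± 0.12), and Sema3c was lower at -1.50 ± 0.26 with its call lost under the wash batch block (adjusted p = 0.0684). Of 20 cadherins and protocadherins 2 were called higher and 5 lower, led by Pcdh8 (-1.13 ± 0.13). In the matrix list 1 of 18 was called higher and 3 lower, among them Hapln4, a link protein of perineuronal nets (202, 233 and 165 against 52.3, 42.0 and 85.7, -1.54 ± 0.22, with -0.18 and 0.22, not called, at other probe sets).

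Oligodendrocyte and myelin genes were called higher for 25 of 25 measured, with a median of 1.72, and 23 of them stayed past the threshold without any 1 array. Mag, myelin-associated glycoprotein, was 181, 254 and 167 in the cingulate and 780.4, 1014 and 1070.0 in the accumbens (2.17 ± 0.18). Opalin, a membrane protein of mature oligodendrocytes, was 70.6, 101 and 67.3 and 341, 405 and 376 (2.04 ± 0.16), and Mobp, a structural protein of myelin, 1243, 1294 and 1067 and 3859, 4408 and 3738 (1.72 ± 0.12). Mal (2.09 ± 0.22) and Ermn (2.73 ± 0.34), a cytoskeletal protein of myelin, were higher as well. Mbp, already bright in the cingulate, differed least (3191, 3412 and 3130.4 against 4047, 4867 and 4006, 0.40 ± 0.11, with -0.17, not called, and 1.29, called, at other probe sets). The summed signal of the list lay between 9064 and 11258 on the cingulate arrays and between 24447 and 29330 on the accumbens arrays. Sox10, the lineage factor, was 41.0, 42.8 and 43.4 and 126, 155 and 188 (1.55 ± 0.15), and of 11 precursor genes 3 were called higher and 1 lower, with the precursor receptor Pdgfra not called (0.25). Genes counted in other lists that oligodendrocytes also carry, such as Lpar1, Gpr37, Sirt2 and Sema4d, were higher as well, and the part of oligodendrocytes in those differences was not tested.

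In the other glial and the vascular lists the share of called genes was at or below that of all genes. Of 20 astrocyte genes 1 was called higher and 1 lower, the connexin gene Gjb6 (398, 510.2 and 388 against 135, 151 and 225, -1.28 ± 0.19), and the summed signal was 22459 to 24909 in the cingulate and 21701 to 24392 in the accumbens. Gfap was not called (-0.57). Of 19 microglial and macrophage genes 2 were called lower, Lyz2 (554, 548 and 592 against 223, 227 and 328, -1.10 ± 0.15) and Cd74 (-0.96 ± 0.12), while Cx3cr1 (0.28), P2ry12 (0.44) and Csf1r (0.08) were not called. The call of Cd74 was lost with the wash batch block (adjusted p = 0.439). Of 21 endothelial and mural genes limma called 0 (0 at an unadjusted p under 0.05), and of 3 blood genes 0 (0). Their summed signals overlapped between the structures (2214 to 2318 against 1886 to 2309 for the vessel list, 1848 to 3070.5 against 1234 to 2991 for the blood list).

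Meningeal and fibroblast genes had 11 of 20 members called lower and 0 higher in the accumbens, with a median of -0.72. Igfbp2, an insulin-like growth factor binding protein abundant in meninges, was 344, 373 and 379.5 in the cingulate and 27.3, 48.8 and 49.4 in the accumbens (-2.75 ± 0.17). Collagen gene Col1a2 (123, 141 and 133 against 32.7, 29.5 and 50.3, -1.49 ± 0.17), the transporter gene Slc13a4 (-1.38 ± 0.14) and Igf2 (-1.32 ± 0.13, with -0.02 to -0.03 at other probe sets) were lower. The summed signal was 1882 to 2010 on the cingulate arrays and 770 to 979 on the accumbens arrays. Of the 11 calls 8 held without any 1 array, but 1, that of Igfbp2, held with the wash batch block, where the median was -0.58, and 3 were called within wash batch 2, which sets accumbens vehicle arrays 1 and 2 against cingulate TsA arrays 2 and 3 (median -0.70). The part of meninges left on the dissected cortex was not tested.

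Genes of regions next to the accumbens, namely septum, pallidum and diencephalon, were called higher for 6 of 20 and lower for 3, with a median of 0.07. Beside Nts and Calcr, Ecel1 was higher, at 52.6, 83.2 and 67.8 in the accumbens against 11.6, 9.84 and 11.1 in the cingulate (1.63 ± 0.16, with 0.09 at another probe set). The 3 lower were Trpc6 (-1.14), Trpc4 (-0.74) and Lhx9 (-0.37). With the wash batch block Trpc4 (adjusted p = 0.164) and Lhx9 (0.535) lost their calls. Both also lost them in several fits without 1 array, such as that without accumbens array 2 (0.0714 and 0.062). The thalamic and hypothalamic vesicular glutamate transporter gene Slc17a6 (-0.73), the septal factor gene Zic1 (13.0, 16.5 and 19.5 against 9.41, 9.92 and 8.79) and the hypothalamic peptide genes Hcrt (-0.14) and Avp (-0.07) were not called. The summed signal of the list was 377 to 440 in the cingulate and 664 to 771 in the accumbens, and the share of these tissues in the dissected blocks was not tested. Of 11 choroid plexus and ependymal genes 1 was called, Kl (0.35), and the choroid plexus gene Ttr was not (28.2, 15.2 and 23.8 against 13.8, 12.9 and 15.3). The call of Kl was lost in 8 of 16 alternatives, among them the wash batch block (adjusted p = 0.0545), the comparison within wash batch 2 (0.0628), and the fits without cingulate array 1 (0.0664), 2 (0.0601) or 3 (0.0959) or accumbens array 2 (0.0578), and its value ran from 0.10 with an added constant of 64 to 1.75 with 1.

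**Figure D4:**
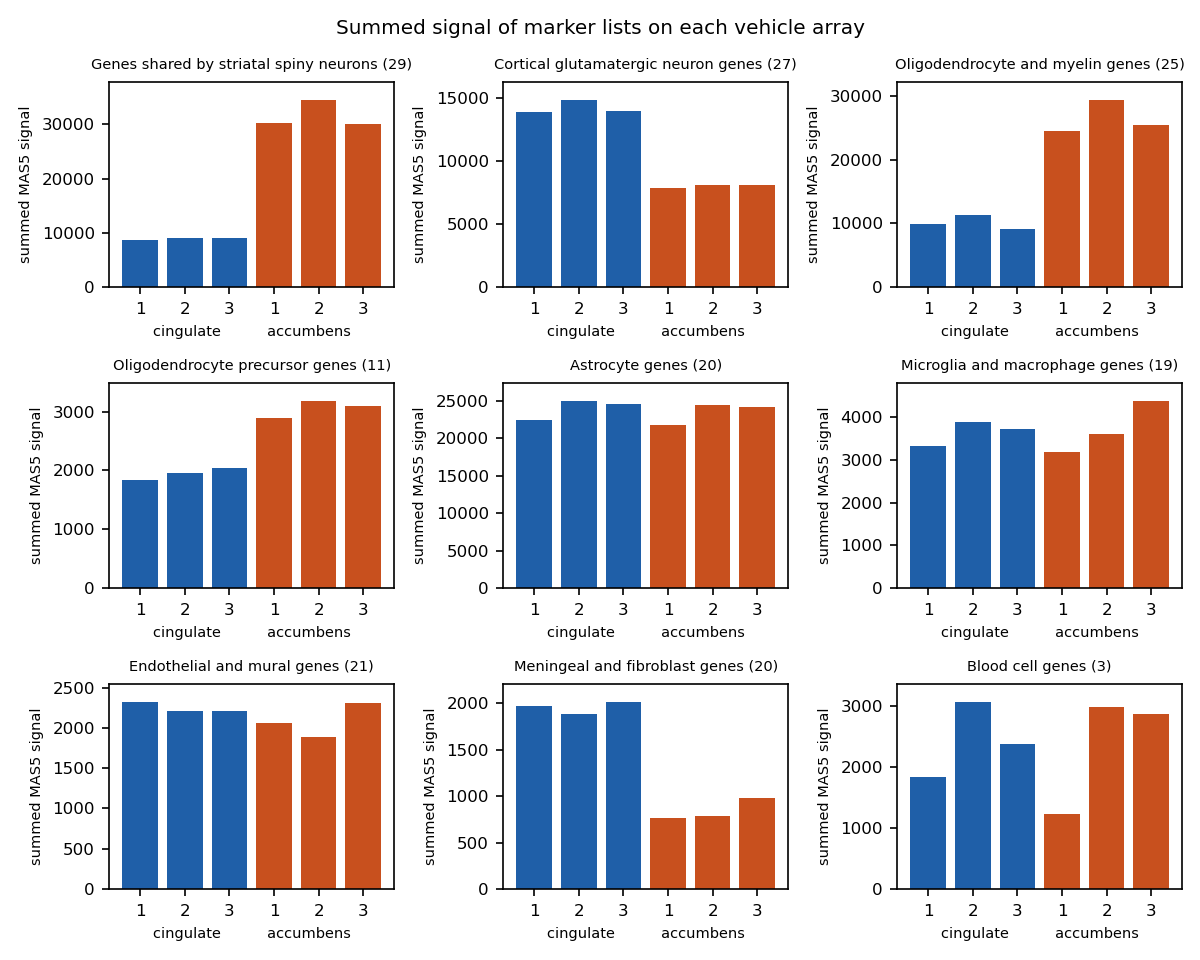
Summed MAS5 signal of 9 marker lists on each of the 6 vehicle arrays, with blue bars for the cingulate, orange bars for the accumbens and the number of measured genes in brackets. The sums of the spiny neuron, oligodendrocyte, precursor, cortical glutamatergic and meningeal lists separate the structures, whereas those of the astrocyte, microglial, vascular and blood lists overlap. In the precursor sums Olig1 alone gave means of 589 in the cingulate and 1363 in the accumbens. Of the 11 precursor genes 3 were called higher and 1 lower.

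Immediate-early genes, which neurons switch on briefly with activity, had, 2 h after the last cocaine session, 9 of 26 members called lower and 2 higher in the accumbens, with a median of -0.47. Ier5 was 746, 859 and 790.1 in the cingulate and 159, 138 and 225 in the accumbens (-2.12 ± 0.17, and -0.65 at another probe set), and Egr2 was 392, 388 and 437 and 117, 99.3 and 161 (-1.60 ± 0.16, and -0.79 at another). Fos was 402, 573 and 458 and 193, 232 and 275 (-0.99 ± 0.17, with 0.16 at another probe set), and its call was lost with the wash batch block (adjusted p = 0.0932). Arc (-1.17 ± 0.24) lost its call without cingulate array 2 (adjusted p = 0.0557), cingulate array 3 (0.0634) or accumbens array 2 (0.0646). Of the 9 lower and 2 higher calls, 4 and 0 held without any 1 array. Fosb (-0.52) and Homer1 (-0.00, but -1.26, called, at 1 of its other probe sets) did not pass. Of 13 MAP kinase phosphatase and Sprouty genes 3 were called lower, and 0 of these calls held without each array. No group without cocaine exists among these arrays, so a difference between structures at rest and one in the response to cocaine cannot be told apart.

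Cytosolic ribosomal protein genes had a median difference of 0.19, with 4 of 35 called higher and 0 lower, and no call held without each array. Oxidative phosphorylation genes had 1 of 50 called higher and 1 lower. Of 27 histone deacetylase and acetyltransferase genes 5 were called higher and 0 lower, with Kat2b, an acetyltransferase, at 1.04 ± 0.12 (0.37, not called, at another probe set) and Sirt2, a deacetylase abundant in oligodendrocytes, at 0.86 ± 0.14. The call of Sirt2 was lost with the wash batch block (adjusted p = 0.0996). The class I deacetylase genes Hdac1 (-0.16), Hdac2 (0.11) and Hdac3 (-0.10) were not called.

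The accumbens arrays had an order of their own in the genes furthest below the cingulate. Among the 59 genes at least 4-fold lower in the accumbens, array 2 was the lowest of the 3 accumbens arrays for 48 and array 3 the highest for 44, with median signals of 45.3, 31.4 and 54.3 on arrays 1, 2 and 3. For the 58 genes at least 4-fold higher there, no cingulate array stood out, arrays 1, 2 and 3 being lowest for 21, 20 and 17. Slc17a7, Neurod6, C1ql3 and Cck are among the genes with this order. The order of the arrays over all genes was not counted, so it is not known to be particular to these genes. Accumbens array 3 was also the only vehicle array of wash batch 3. The parts of wash batch and of cortical tissue in accumbens blocks were not tested.

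The TsA arrays gave the same comparison in other animals. They share no array with the vehicle comparison, but share its wash batches. Cingulate TsA array 1 was washed in batch 1, cingulate TsA arrays 2 and 3 in batch 2 and all 3 accumbens TsA arrays in batch 3. No batch held TsA arrays of both structures, so structure and wash batch cannot be told apart in this comparison either. There 6946 probe sets were called (22.4%). Of the 4568 called on the vehicle arrays 4509 (98.7%) had the same sign on the TsA arrays and 3763 were called there too, which is 82.4% of the vehicle calls and 54.2% of the TsA calls, and 0 were called in opposite directions. Over all 31042 probe sets the sign was the same for 72.6% and the differences correlated at 0.874, a description across probe sets, which are not independent. Cartpt differed by 4.54 on the TsA arrays and 4.66 on the vehicle arrays, Drd2 by 3.89 and 3.99, Nts by 4.04 and 3.61, Cyp26b1 by -3.70 and -3.55, and Slc17a7 by -2.28 and -2.60. A test of whether the structure difference itself depended on treatment (limma, 12 arrays) called 0 probe sets, with a smallest adjusted p of 0.908, and 1216 had an unadjusted p under 0.05 (3.92%). Called or not, the median size of that dependence was 0.13, and a p that misses the threshold does not show that the structures differed alike under both treatments.

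**Figure D5:**
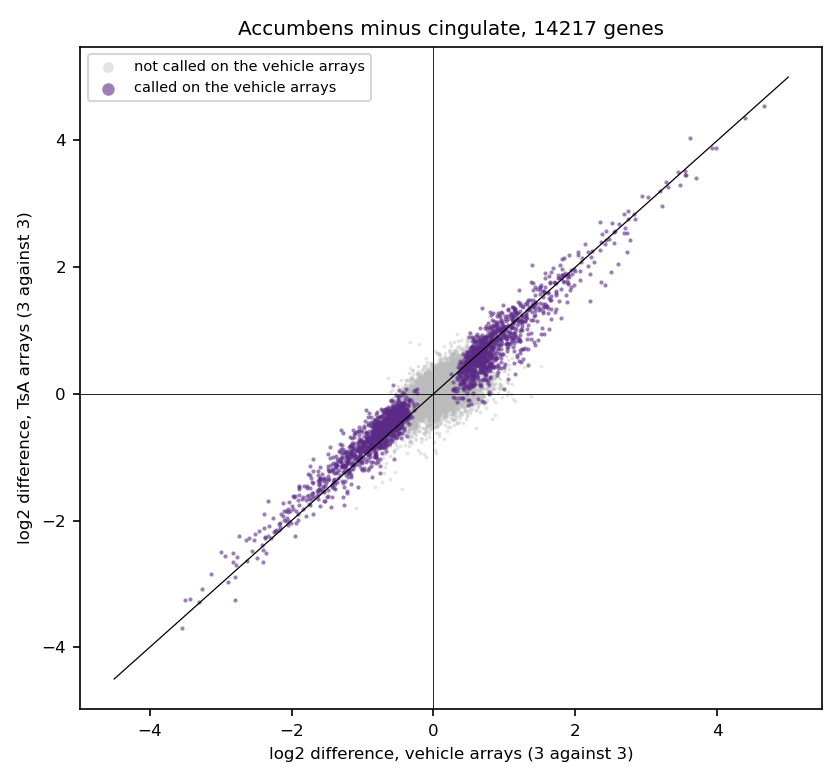
Accumbens minus cingulate difference, as log2(signal + 16), on the 3 against 3 TsA arrays (vertical) and on the 3 against 3 vehicle arrays (horizontal) for 14217 genes, with the line of equality. Genes called on the vehicle arrays are purple, and they lie along the line from Cyp26b1 (-3.55 and -3.70) to Cartpt (4.66 and 4.54).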

How the data were processed

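The arrays were of the Affymetrix type Rat Genome 230 2.0, and the analysis starts from 1 deposited intensity value per probe set and array. GCOS 1.4 and MAS5 are named for the image and signal steps, per the submitters' processing notes, and the values are on a linear scale. The 2% trimmed mean was 100.03 on every array, which shows a scaling per array before deposit, and no further normalization was applied. Median signals of the vehicle arrays were 26.8 to 29.2 in the cingulate and 31.4 to 33.1 in the accumbens, and the number of arrays limits the precision. Fluidics records of the scanner runs gave the wash batches.

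Of 31099 probe sets, 57 controls were left out. The platform annotation gave 1 symbol to 20826 probe sets (14217 genes), several to 436 and none to 9780, and 20758 gene IDs were found in the RefSeq rat gene table. The deposited values were taken as log2(signal + 16), without a filter on low values, and 3 accumbens vehicle arrays were compared with 3 cingulate vehicle arrays in limma 3.58.1 (R 4.3.3) with lmFit and eBayes with a mean-variance trend, two-sided, with Benjamini-Hochberg adjustment and a threshold of 0.05. The same fit was run on the TsA arrays, and an interaction of structure and treatment on all 12. On simulated arrays of the vehicle comparison (31042 probe sets, 67 changed per size) the fit found 4.5% of differences of 0.5 on the log2 scale, 88.1% of 1 and 100% of 2. It made 8 false calls. Far fewer probe sets were changed there than the 4568 called on the real arrays, and the adjustment depends on that share. These rates therefore do not give the sensitivity of the real comparison.

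The comparison, the 43 gene lists and the rule for naming genes were chosen with earlier results of these data known. The rule names the 15 highest and 15 lowest called genes, up to 6 called members of a list in each direction, and other list members as values. The value of another probe set is given where it had the other sign or was under 0.5 or over 2 times as large. Lists are described by counts and medians without a test of the list, and a listed gene not matched to a probe set with 1 symbol was not analysed here. Replicate numbers were checked as pairs: deviations of same-numbered cingulate and accumbens arrays correlated at 0.54, 0.07 and 0.06, so they were not treated as pairs. Alternatives were other added constants, a filter, quantile normalization, median centring, no trend, a replicate block, all 12 arrays, wash batch as a random or fixed block, and leaving out each array. The comparison within wash batch 2 was added after seeing the data. Promoter sequences are from RefSeq (GRCr8). Python 3.11.15 with pandas 2.3.3 and matplotlib 3.10.9 was used for summaries.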

Additional observations from a re-analysis of the deposited data

How the results depend on the processing

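The count of 4568 called probe sets (2534 higher, 2034 lower) rose to 6966 (3874 and 3092) with 12 arrays and a mean for each group, and was 2190 (1033 and 1157) with wash batch as a fixed block, where 4553 of the 4568 kept their sign. Leaving out 1 array gave 2382 to 5004 calls, 1311 to 2726 higher and 1071 to 2278 lower. With the other settings it stayed within 1.5 times: 4434 and 4504 with added constants of 1 and 64, 4454 without the lowest 40% of probe sets, 4366 after quantile normalization, 4900 after median centring, 4785 without a trend, 4115 with wash batch as a random block and 3161 within wash batch 2. With the replicate block 5193 were called, of which 4285 were among the 4568, all in the same direction, and the interaction with treatment called 0. That interaction called 0 in each of its settings, leaving out each of the 12 arrays included. The share of calls that were higher was 55.5% as deposited, 48.3% after quantile normalization and 38.5% after median centring, which moved the median of all probe sets by -0.11. Of the 251 genes under the naming rule 160 kept their call in every alternative, 69 lost it in some fit without 1 array, 76 with the fixed wash batch block and 44 within wash batch 2, and 0 reversed. All 30 genes furthest apart kept their call throughout, but they were picked for their size on the same arrays that most alternatives refit. Medians of lists near 0 changed sign with the setting: that of the septal, pallidal and diencephalic list was 0.07 as reported and -0.05 after median centring, and that of the monoamine receptors -0.03 after median centring. The median of the indirect-pathway list moved from 0.45 to 1.72 with an added constant of 1 and to 0.15 with 64. The cause of these changes was not tested. Genes near the floor of the arrays have differences that depend on the added constant. A difference of 0.5 was rarely found on the simulated arrays, which held far fewer changed probe sets than were called here. The smallest difference called on the real arrays was 0.22 in size.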

Other observations

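Several of the genes furthest apart stand in no list. Rtn4r, the receptor through which myelin proteins halt axon growth, was 203, 244 and 233 on the cingulate arrays and 17.7, 7.58 and 19.2 on the accumbens arrays (-3.00 ± 0.18), below 20 on every accumbens array and above 200 on every cingulate array, as Grp was. Dkk3, a secreted protein of the dickkopf family, was 879.6, 941 and 918 and 112, 106 and 137 (-2.80 ± 0.12), but -0.06 and not called at another probe set. Car10, a carbonic anhydrase-related protein without enzyme activity that binds neurexins, was 566, 635 and 664 and 72.3, 34.0 and 125 (-2.90 ± 0.33). Tafa1, a secreted protein of brain, was 224, 223 and 206 and 18.7, 4.83 and 39.1 (-2.77 ± 0.31), again with accumbens array 2 lowest. On the other side was Strip2, a component of the complexes that tie a phosphatase to kinases of the germinal centre family, at 41.6, 21.9 and 34.6 in the cingulate and 636, 618 and 410.1 in the accumbens (3.55 ± 0.21).

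Probe sets of 1 gene can read different transcript ends or splice forms, and 12 of the 445 genes with 2 or more called probe sets had calls in both directions. Trim37, a ubiquitin ligase, was higher by 1.74 (adjusted p = 0.000315, limma) at one probe set and lower at another (-0.81, adjusted p = 0.0089). Septin8, a cytoskeletal septin, showed 1.12 (0.00248) and -0.76 (0.00161), and Tpm1, a tropomyosin with many splice forms, 0.94 (0.0037) against -0.61 (0.0107) and -0.55 (0.0224). Klc1, a kinesin light chain, showed 0.63 (0.0165) against -0.82 (0.00615) and -0.45 (0.0239). The other genes were Aplp2, Arpp21, Camk2a, Camk2g, Cops3, Grb2, Tcf25 and Vamp1. Which transcripts these probe sets read was not tested.

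Some genes named in the report as not called had further probe sets that did not pass the threshold, with 0.08 and -0.06 for Drd4, 0.20 for Gabrb2, -0.16 and 0.11 for Grin2a, -0.06 for Hdac1, -0.07, -0.14 and -0.21 for Homer1, -0.05 and -0.13 for Htr2a, 0.27 and -0.47 for Ntrk2, 0.15 for Oprm1, -0.22 and -0.02 for Prkacb and -0.02 for Slc6a3.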
